A study of Mus musculus with 7 samples.

Results

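The transcripts of 8 genes for regulator of G protein signalling (RGS) proteins were followed in the apical myocardium of 7 mice: Rgs1, Rgs2, Rgs4, Rgs5, Rgs10, Rgs12, Rgs16 and Rgs18. They are 8 of 20343 genes in the count table and 8 of the 16 found there whose symbols begin with Rgs. The 8 were taken by gene symbol. They were chosen by their counts-per-million (CPM) in control and transferred hearts, with the difference already known, so their values between the groups are a description and no test of them is offered as support. All 7 mice were NSG-DR1 (labelled NSG-DRB1*0101). These immunodeficient mice express human HLA-DR1 and lack mature mouse T, B and NK cells, while their myeloid cells remain. Hearts came from 4 untreated control mice and from 3 mice 6 weeks after transfer of human CD4+ T cells. The series title speaks of terminally differentiated CD4+ T cells, while the sample labels give neither the subset nor an age, and the groups differ by the transfer as a whole, with no group given other cells. Each heart has its own identifier and was taken as a separate animal. Group values below are means ± SD over the 4 control and 3 transferred hearts, and log2 fold changes are transferred over control, ± 1 standard error (SE) of the edgeR fit.

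RGS proteins end the signal of G protein-coupled receptors. A receptor loads the alpha subunit of its G protein with GTP, and the RGS domain speeds the hydrolysis of that GTP, after which the subunits reassemble and the effectors fall silent. Members differ in the alpha subunits they act on and in the cells that make them. In heart and vessels the family is best known for restraining the Gq signals of angiotensin, endothelin and catecholamines and the Gi signals of acetylcholine and chemokines.

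Column totals over the part of the genome in the table, chromosomes 1 to 7 and the start of chromosome 8, ranged from 16402194 to 25190580 counts. On the TMM-scaled library sizes, 3 counts correspond to between 0.115 and 0.189 CPM, a floor for counting error alone. Cardiomyocyte markers fitted the labelled tissue, with 10 of 10 tested and a summed level between 90810 and 119519 CPM. The B cell gene Pax5 and the NK cell genes Ncr1 and Klrb1c had 0 counts in all 7 hearts. The 8 listed T and NK cell genes in the table summed to between 29.9 and 38.3 CPM in control hearts and between 28.5 and 36.03 CPM in transferred hearts, ranges that overlap. Cd28 alone averaged 28.6 CPM of this in control hearts. Cd2, near the floor, is given beside Rgs1. Cd247 averaged 3.65 and 1.76 CPM (adjusted p = 0.278 by edgeR). All 12 tested macrophage markers were above control on average and 2 of them, C1qb and Mrc1, passed the edgeR test over all genes, beside 3807 of 7667 tested genes above control and 0.235% past the test.

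Rgs2 encodes a small RGS protein that acts with preference on Gq and limits vasoconstrictor signals in smooth muscle and hypertrophic signals in cardiomyocytes. It lies on chromosome 1 from 143999338 to 144004149 on the minus strand of GRCm38.p6 (gene ID 19735, 3009 bp of combined exons). Its level was 47.8, 46.5, 47.4 and 49.9 CPM in control hearts 1 to 4 and 70.2, 97.4 and 78.1 CPM in transferred hearts 1 to 3. Every transferred heart lay above every control heart, and the control hearts were nearly level with each other. The mean was 47.9 ± 1.46 CPM (SD, n = 4) in control hearts and 81.9 ± 14.02 CPM (SD, n = 3) in transferred hearts, a ratio of 1.71. The log2 fold change was 0.77 ± 0.11 (SE). The coefficient of variation was 3.04% between control hearts and 17.1% between transferred hearts. Transferred heart 2 had the highest level, and without it the log2 fold change was 0.63.

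Rgs2 was the single one of the 7 tested genes of the 8 that passed an adjusted p of 0.05 in the edgeR quasi-likelihood test, where 0.235% of all 7667 tested genes passed in either direction and 0.130% passed as higher. Its call was the reason for following it and supports nothing further. Over 18 alternative analyses the log2 fold change lay between 0.63 and 0.88, and the call was kept in 10. It was lost in limma-voom, with the form of the animal identifier as a covariate, in the 5 hearts with numeric identifiers alone, and without any 1 of the 4 control hearts or without transferred heart 2. The groups did not overlap in CPM for 2 of the 7 tested genes, Rgs2 and Rgs10, both higher, and in 11.2% of all tested genes (5.99% higher). The median log2 fold change was 0.37 over the 7 genes, which is the value of Rgs16, and -0.002 over all tested genes. Of the 7 genes 4 were above 0, and since they were chosen with the difference known, nothing is read from this median.

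**Figure D1:**
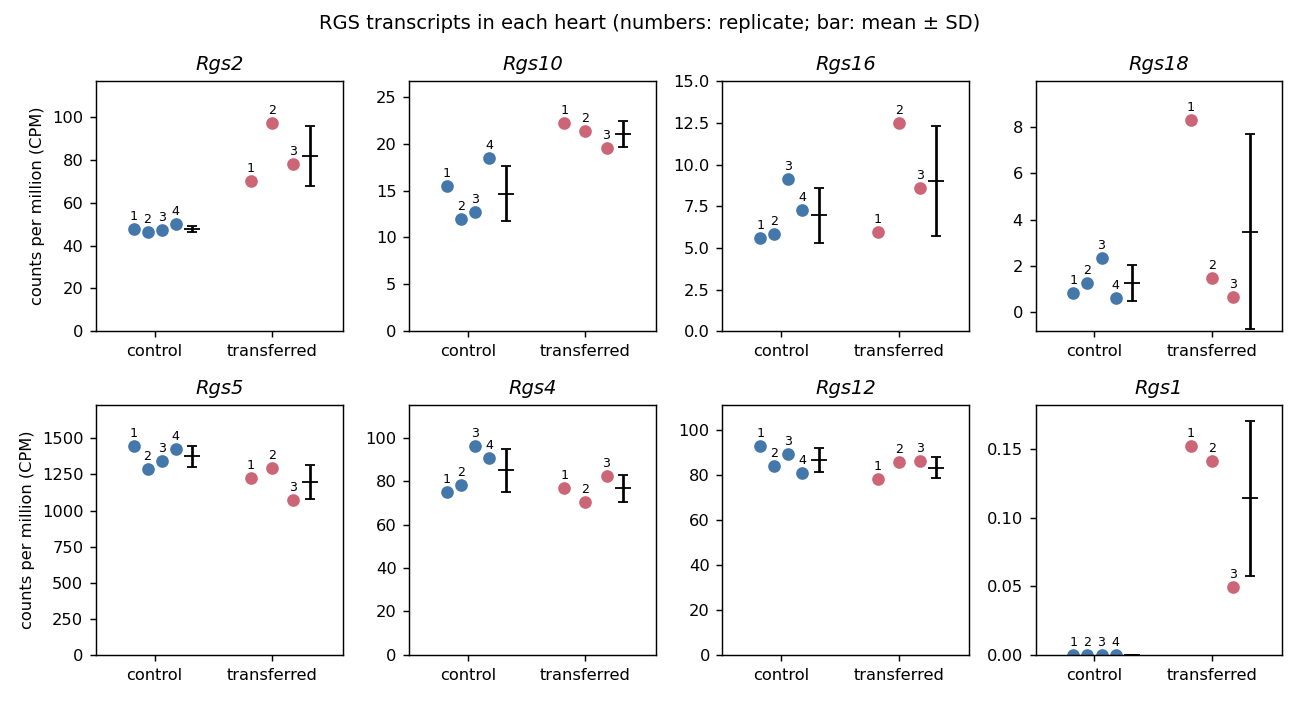
Level of the 8 RGS transcripts in each heart, in TMM-scaled counts-per-million on a linear axis; each point is a heart, numbered by replicate, and the bar beside it gives the group mean ± SD (control n = 4, transferred n = 3). Rgs2 and Rgs10 show no overlap between the groups, Rgs18 is high in transferred heart 1 alone, and Rgs1 is at 0 in all control hearts.

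Most RGS genes of the table lie in 3 groups on chromosome 1. The sequences before 4 start sites are shown because log2 fold changes there differed in sign, positive for Rgs2 and Rgs16 and negative for Rgs4 and Rgs5. The groups overlapped for Rgs4, Rgs5 and Rgs16 and none of these was past the threshold, so no opposite response is read from the signs. Between positions 143999338 and 144775427 lie 5 RGS genes, Rgs2, Rgs13, Rgs1, Rgs21 and Rgs18, all on the minus strand. Rgs8, Rgs16 and Rgsl1 lie between 153652959 and 153847341, and Rgs5 and Rgs4 are neighbours between 169655501 and 169747642 with no other listed gene between them. The 250 bases before the RefSeq start site (GRCm38.p6) follow for the 4 of these genes that were tested and have an entry in the promoter table, each 5′ to 3′ on the strand of the gene. Capitals mark the CCAAT box (CCAAT or its reverse complement ATTGG) and the core of the cAMP response element (TGACG or its reverse complement CGTCA), motifs picked after the sequences were read.
Rgs2, chr1:144004150-144004399, minus strand: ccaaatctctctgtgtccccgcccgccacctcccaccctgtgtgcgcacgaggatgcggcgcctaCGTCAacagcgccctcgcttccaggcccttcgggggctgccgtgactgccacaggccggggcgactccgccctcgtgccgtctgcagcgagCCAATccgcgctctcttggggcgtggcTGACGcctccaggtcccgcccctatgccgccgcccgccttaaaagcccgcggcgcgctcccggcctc
Rgs4, chr1:169747643-169747892, minus strand: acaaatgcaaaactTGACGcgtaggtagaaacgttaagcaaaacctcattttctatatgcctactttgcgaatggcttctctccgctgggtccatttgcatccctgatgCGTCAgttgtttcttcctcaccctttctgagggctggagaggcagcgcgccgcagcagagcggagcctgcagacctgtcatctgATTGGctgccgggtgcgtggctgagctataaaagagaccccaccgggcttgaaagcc
Rgs5, chr1:169655251-169655500, plus strand: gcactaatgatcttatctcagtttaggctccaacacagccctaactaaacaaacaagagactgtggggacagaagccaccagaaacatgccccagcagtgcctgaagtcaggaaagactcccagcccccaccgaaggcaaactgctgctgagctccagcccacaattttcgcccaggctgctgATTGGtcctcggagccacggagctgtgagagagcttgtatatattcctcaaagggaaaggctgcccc
Rgs16, chr1:153740103-153740352, plus strand: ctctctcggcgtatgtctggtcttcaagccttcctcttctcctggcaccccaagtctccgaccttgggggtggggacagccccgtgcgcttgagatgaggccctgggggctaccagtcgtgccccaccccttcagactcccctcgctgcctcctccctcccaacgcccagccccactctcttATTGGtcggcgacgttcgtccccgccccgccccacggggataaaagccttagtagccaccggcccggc

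These 4 of the 7 windows matched to 6 of the 8 genes held a CCAAT box, and those of Rgs10 and Rgs12 did not. The box is bound by the factor NF-Y at many promoters. Its first base lay at -94 from the start site in Rgs2, on the strand of the gene, and at -57 in Rgs4, -67 in Rgs5 and -68 in Rgs16, on the opposite strand. Of all 32851 windows of the same length in the promoter table, 33.8% held a CCAAT box on either strand. The core of the cAMP response element occurred at -185 and -67 in Rgs2 and at -236 and -141 in Rgs4, and at -82 in 1 of the windows of Rgs12. It is not in the windows of Rgs5 and Rgs16. It occurred in 17.8% of all windows. The full element TGACGTCA, found in 1.55% of all windows, is in none of the 7 windows. A TATA box (TATAAA, 12.4% of all windows) is in 1 of the 7, at -31 in Rgs4. The GC box (GGGCGG on either strand, 32.7% of all windows) is in 5 of the 7 windows, those of Rgs2, Rgs16, Rgs10 and Rgs12, and occurred 4 times in that of Rgs2. The share of G and C was 76.4% in Rgs10, 72.4% in Rgs2, 66.4% in Rgs16, 53.6% in both Rgs4 and Rgs5, and 68.4% and 55.6% in the 2 windows of Rgs12. These matches are letters in a window, and no binding was measured.

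Rgs10, on chromosome 7 from 128373621 to 128419506 (gene ID 67865), encodes a small RGS protein that acts on Gi subunits and is made by macrophages, microglia and platelets. Its level was 15.5, 12.01, 12.7 and 18.4 CPM in control hearts 1 to 4 and 22.2, 21.3 and 19.6 CPM in transferred hearts 1 to 3. The groups did not overlap, and control heart 4 came closest to the transferred hearts. The log2 fold change was 0.53 ± 0.16 (SE), and it lay between 0.44 and 0.65 over the alternatives.

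Macrophage markers moved with both genes. The 12 macrophage markers in the table summed to 611, 609.6, 519 and 762 CPM in control hearts 1 to 4 and to 1174, 1300.2 and 909 CPM in transferred hearts 1 to 3. Transferred heart 2 was highest for Rgs2 and for these markers, but the next was heart 3 for Rgs2 and heart 1 for the markers. Rgs10 was highest in transferred heart 1. The 7 neutrophil markers summed to 24.4, 320.9 and 56.2 CPM in transferred hearts 1 to 3, in the same order as Rgs2, and to between 14.3 and 39.8 CPM in control hearts, so that transferred heart 1 lay within the control range. Platelet and megakaryocyte markers, 7 in the table, summed to 142.5, 167.9 and 28.7 CPM in transferred hearts 1 to 3 and to 23.6, 28.3, 45.9 and 24.9 CPM in control hearts 1 to 4. The part of these cell types in the levels of Rgs2 and Rgs10 was not tested, and in tissue RNA more cells of a type and more RNA per cell cannot be told apart.

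Rgs18 encodes an RGS protein of megakaryocytes, platelets and myeloid cells, and lies on chromosome 1 from 144752683 to 144775427 (gene ID 64214). Its level was 0.827, 1.25, 2.34 and 0.631 CPM in control hearts 1 to 4 and 8.31, 1.46 and 0.642 CPM in transferred hearts 1 to 3. One heart, transferred heart 1, stood apart, and the other 2 transferred hearts lay within the control range. The log2 fold change was 1.42 ± 0.82 (SE), and without transferred heart 1 it was -0.29. Neutrophil markers were highest in transferred heart 2, where Rgs18 was within the control range. Transferred hearts 1 and 2 were both high in platelet markers, while Rgs18 was high in the first alone. The part of these cells in the level of Rgs18 was not tested.

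Rgs1 encodes an RGS protein of activated B and T lymphocytes that dampens chemokine receptor signals, and lies on chromosome 1 from 144244669 to 144249104 (gene ID 50778). It had 0 counts in all 4 control hearts and 3, 3 and 1 counts in transferred hearts 1 to 3. It did not reach the filter on low counts, and no library held more than 3 counts, so no fold is given. The 5 B cell markers in the table summed to at most 0.146 CPM in control hearts and 0.423 CPM in transferred hearts, and none of them reached the filter. The T cell gene Cd2, also under the filter, was between 0 and 0.0430 CPM in control hearts and between 0.141 and 0.247 CPM in transferred hearts. Of the other listed T and NK cell genes, Cd4, Cd8a, Cd28, Cd247 and Lck overlapped between the groups, and Ncr1 and Klrb1c had 0 counts. Log2 fold changes were -1.06 for Cd247, -0.13 for Cd28 and 0.35 for Cd4. The part of lymphocytes in the counts of Rgs1 was not tested.

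**Figure D2:**
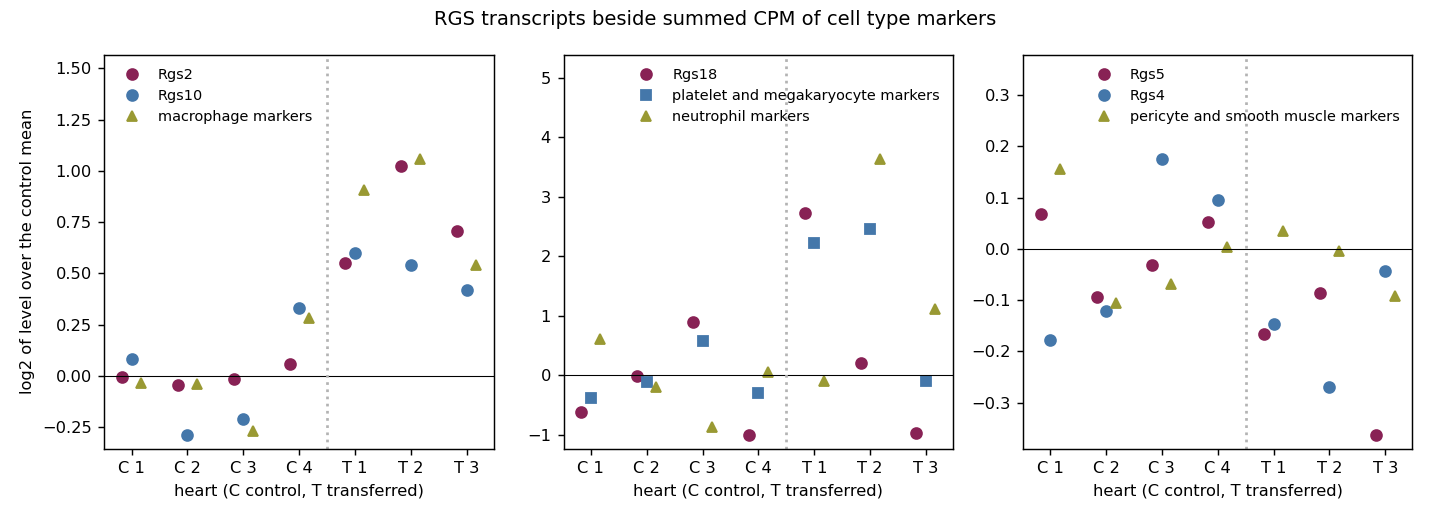
Rgs2 and Rgs10 beside macrophage markers (left), Rgs18 beside platelet and neutrophil markers (middle) and Rgs5 and Rgs4 beside pericyte and smooth muscle markers (right), as log2 of the CPM, or of the summed CPM of a marker list, over its mean in the 4 control hearts; each point is a heart (C control, T transferred). In the left panel all transferred hearts lie above all control hearts for the 3 measures, and in the middle panel Rgs18 is high in transferred heart 1 alone.

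Rgs5, a marker of pericytes that acts on Gi and Gq, was by far the most abundant RGS transcript. It lies on chromosome 1 from 169655501 to 169695813 (gene ID 19737) and ranked at place 105 of 7667 tested genes by mean CPM. Its level was 1444, 1289.7, 1347 and 1428 CPM in control hearts 1 to 4 and 1228, 1297 and 1070.5 CPM in transferred hearts 1 to 3. The groups overlapped, since transferred heart 2 lay above control heart 2. The mean was 1377 ± 72.2 CPM in control hearts and 1198 ± 115.9 CPM in transferred hearts, at a log2 fold change of -0.20 ± 0.09. The value was negative in all 18 alternatives, between -0.26 and -0.13.

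The 5 pericyte and smooth muscle markers in the table summed to between 1598 and 1915 CPM in control hearts and between 1613 and 1761 CPM in transferred hearts, which overlap. Of these markers, Heyl, a transcription factor downstream of Notch in mural cells, had values in transferred hearts below those of all control hearts, at 99.4 ± 2.90 CPM and 71.2 ± 17.2 CPM (adjusted p = 0.215 by edgeR). Of the potassium channel of pericytes, the pore Kcnj8 was at 90.9 ± 5.91 CPM and 83.9 ± 4.93 CPM. Its partner Abcc9 was at 815.7 ± 86.5 CPM and 875.7 ± 46.6 CPM, the highest CPM of the list, not scaled by gene length. Both overlapped between the groups.

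Rgs4, which acts on Gi and Gq and is known from neurons and from the pacemaker region of the heart, lies beside Rgs5 on the opposite strand, from 169741477 to 169747642 (gene ID 19736). Its level was 75.2, 78.2, 96.04 and 90.9 CPM in control hearts 1 to 4 and 76.8, 70.56 and 82.6 CPM in transferred hearts 1 to 3. The groups overlapped, and the log2 fold change was -0.15 ± 0.10 (SE). One of its 7 values, in transferred heart 2, had a fractional part.

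Rgs16, an RGS protein whose transcript is inducible in several cell types, lies on chromosome 1 from 153740353 to 153745468 (gene ID 19734). Its level was 5.59, 5.81, 9.14 and 7.26 CPM in control hearts 1 to 4 and 5.93, 12.5 and 8.60 CPM in transferred hearts 1 to 3. Transferred heart 2 was the highest of all hearts and transferred heart 1 lay near the lowest controls. The log2 fold change was 0.37 ± 0.27 (SE), and without transferred heart 2 it was 0.06.

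Rgs12, a large RGS protein with a PDZ domain and a GoLoco motif that binds inactive Gi subunits, lies on chromosome 5 from 34948929 to 35039642 (gene ID 71729). Its level was 92.7, 84.1, 89.4 and 80.9 CPM in control hearts 1 to 4 and 78.1, 85.7 and 86.2 CPM in transferred hearts 1 to 3, with overlap. The log2 fold change was -0.06 ± 0.08 (SE), and in the 5 hearts with numeric identifiers it was 0.03.

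**Figure D3:**
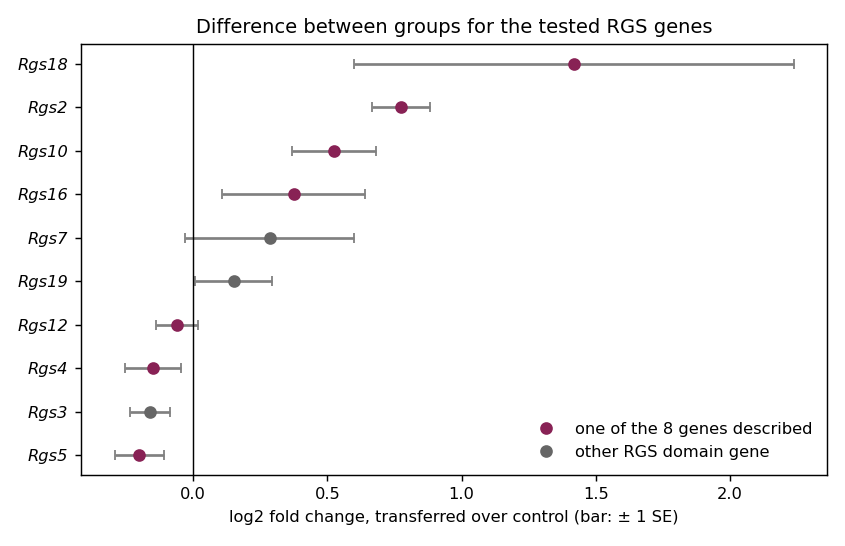
Log2 fold change of transferred over control hearts for the 10 tested RGS genes, with bars of 1 standard error from the edgeR fit. Rgs18 has the highest value and the widest bar, Rgs2 lies at 0.77 and Rgs5 at -0.20.

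The other 8 genes in the table whose symbols begin with Rgs were not among those chosen, and 3 of them were tested. Rgs3, a large member that acts on Gi and Gq, was at 140.8 ± 8.31 CPM in control hearts and 125.96 ± 5.16 CPM in transferred hearts. All 3 transferred hearts lay below all control hearts, as in 5.22% of all tested genes, but the log2 fold change of -0.16 was not past the threshold (adjusted p = 0.4221 by edgeR). Rgs19, which acts on Gi, had a log2 fold change of 0.15 ± 0.14 (adjusted p = 0.732 by edgeR). Rgs7, which works with a special beta subunit mainly in neurons, had one of 0.28 ± 0.32 (SE, adjusted p = 0.782 by edgeR). By edgeR, 0 of the 3 passed, with 0 at an unadjusted p under 0.05, and 0 passed by DESeq2 and by limma-voom. Over all tested genes 0.235% passed by edgeR, 12.4% had such a p and 3.35% passed by DESeq2, so nothing is read from 3 genes. Rgs8, Rgs13 and Rgs21 had 0 counts in every heart. Rgs20 had 27 counts summed over the control hearts and 19 over the transferred hearts, and Rgsl1 had 8 and 9.

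Levels of different genes were compared per kilobase of combined exons. In control hearts Rgs5 led with 303 ± 15.9 CPM per kilobase, followed by Rgs4 with 28.9 ± 3.39, Rgs2 with 15.9 ± 0.484, Rgs3 with 12.01 ± 0.709, Rgs12 with 10.9 ± 0.665 and Rgs10 with 7.65 ± 1.53. Rgs19, Rgs16, Rgs7 and Rgs18 followed with 4.07, 2.98, 0.784 and 0.395 CPM per kilobase. Neighbours in this order whose control values overlapped were Rgs3 and Rgs12, Rgs19 and Rgs16, and Rgs7 and Rgs18. In transferred hearts Rgs2, at 27.2 ± 4.66 CPM per kilobase, lay beside Rgs4 at 26.07 ± 2.05, and their values overlapped. Rgs10, at 10.99 ± 0.708, likewise overlapped with Rgs3 at 10.7 ± 0.440 and Rgs12 at 10.5 ± 0.575.

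Within a heart, the level of Rgs5 per kilobase was 20.001, 18.4, 18.8 and 18.9 times that of Rgs2 in control hearts 1 to 4 and 11.6, 8.81 and 9.07 times in transferred hearts 1 to 3. The ratio of Rgs2 to Rgs4 was 0.621, 0.581, 0.482 and 0.537 in control hearts and 0.892, 1.35 and 0.924 in transferred hearts. Both ratios separated the groups without overlap, and neither depends on the scaling between libraries. Both hold Rgs2, which was chosen with its difference between the groups known, so their separation restates that choice and supports nothing further. Of the summed RGS level per kilobase, Rgs2 made up between 3.99% and 4.26% in control hearts and between 6.43% and 8.38% in transferred hearts. Rgs5 made up between 77.2% and 79.8% in control hearts and between 71.4% and 74.4% in transferred hearts. A share moves with the other genes too: the summed level without Rgs5 was between 79.2 and 87.8 CPM per kilobase in control hearts and between 92.8 and 101.1 CPM per kilobase in transferred hearts, while the level of Rgs5 itself overlapped between the groups.

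**Figure D4:**
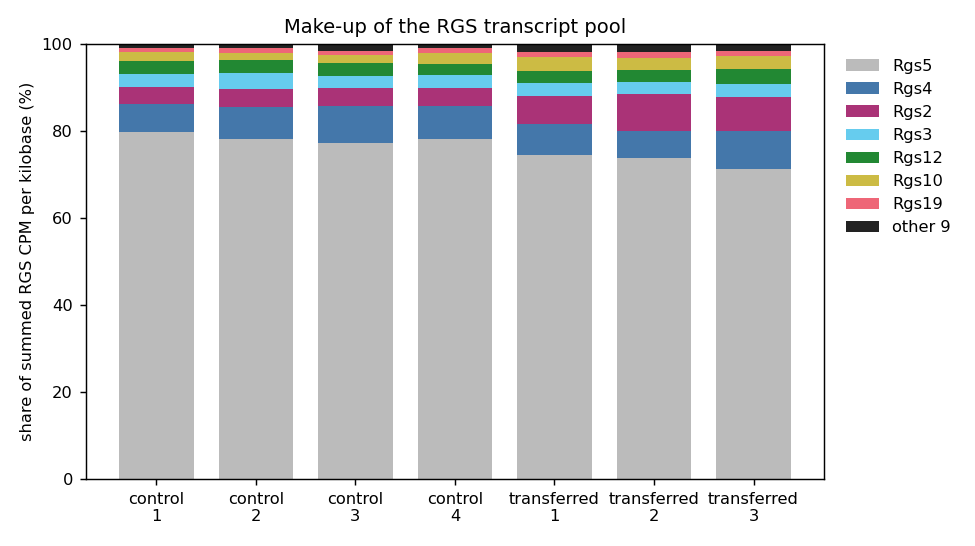
Share of each RGS transcript in the summed level of the 16 Rgs genes of the table, in percent of CPM per kilobase of combined exons, with 1 bar per heart. Rgs5 fills over 71% of every bar, and the Rgs2 segment is taller in the 3 transferred hearts, at 6.43% to 8.38%, than in the 4 control hearts.

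Animal identifiers begin with letters for the first heart of each group and are plain numbers for the other 5. The difference in mean log2 CPM of Rgs2 was 0.86 within the 5 and 0.55 between the 2 with letters. For Rgs10 the differences were 0.53 and 0.52, and for Rgs5 they were -0.20 and -0.23. The sign was not the same for Rgs18, with -0.32 and 3.19, for Rgs12, with 0.02 and -0.25, and for Rgs4, with -0.21 and 0.03. Rgs16 had 0.51 and 0.08. The pair with letters holds 1 heart of each group and gives a value with no error.

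The surroundings of Rgs2 were read out next. Within 1 Mb of its start site the table lists 21 other genes, of which 10 were tested, Rgs18 among them. By edgeR 0 of the 10 passed the threshold, with 2 at an unadjusted p under 0.05, while DESeq2 called 1 and limma-voom 0. Over all tested genes 12.4% had an unadjusted p under 0.05 and DESeq2 called 3.35%, and with 10 genes nothing is read from these counts. The 2 genes are named here after their values were seen. Gm35356, a long noncoding RNA gene from 144080639 to 144118676 on the plus strand, begins 76.5 kb upstream of the Rgs2 start site. Its level was 1.07, 1.42, 0.845 and 0.883 CPM in control hearts 1 to 4 and 2.33, 2.35 and 2.27 CPM in transferred hearts 1 to 3. Every transferred heart was above every control heart, at a log2 fold change of 1.13 ± 0.28 (adjusted p = 0.136 by edgeR). It is the gene called by DESeq2. Ro60, which encodes an RNA-binding autoantigen, was at 55.1 ± 7.28 CPM and 68.9 ± 0.918 CPM, with a log2 fold change of 0.32 (adjusted p = 0.251 by edgeR). The protein-coding neighbours Uchl5 and Glrx2 had log2 fold changes of -0.07 and -0.01.

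**Figure D5:**
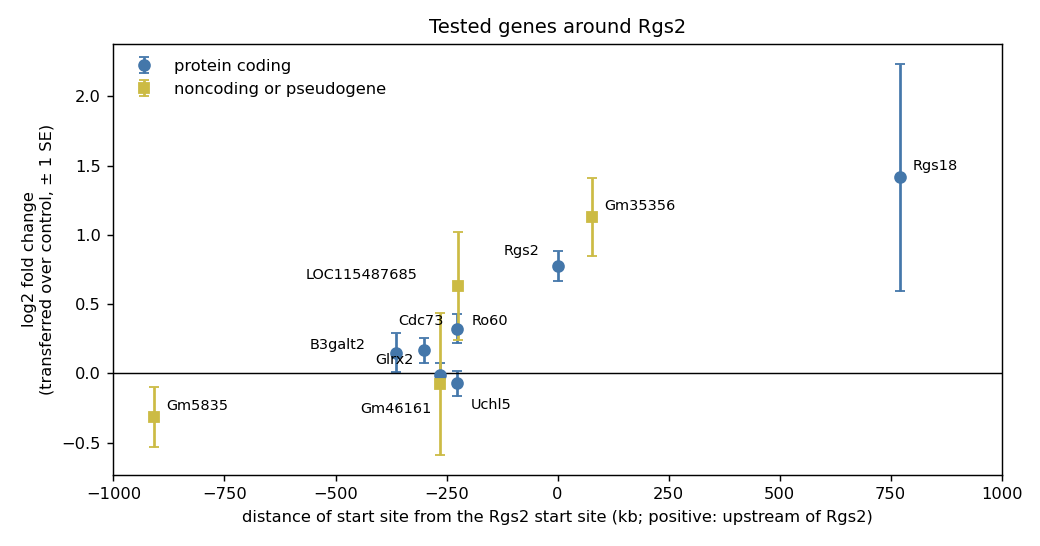
Log2 fold change (± 1 standard error, edgeR) of the 11 tested genes whose start site lies within 1 Mb of that of Rgs2, against the distance between the start sites in kilobases. Rgs2 and the long noncoding RNA Gm35356 lie at 0.77 and 1.13, and the protein-coding genes Uchl5, Glrx2, Cdc73, B3galt2 and Ro60 lie between -0.07 and 0.32.

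The genes whose log2 CPM over the 7 hearts was most like that of Rgs2, among 7003 others with a mean of at least 1 CPM, were Pou2f2 (Pearson r = 0.994, Spearman rho = 1), Pirb (0.994 and 0.964), Lgi2 (0.988 and 0.893), Pira1 (0.987 and 0.929) and P2ry6 (0.987 and 0.929). These values describe 7 hearts that fall into 2 groups, and in all 5 genes the groups did not overlap. Pirb and Pira1 belong to a family of near-identical genes, so their counts may be shared with relatives. Without transferred hearts 2 and 3, those farthest from the median of Rgs2, r was 0.986, 0.973, 0.964, 0.979 and 0.982. That left the 4 control hearts, nearly level in Rgs2, and transferred heart 1 alone. In genes chosen for a high r, these values rest on that 1 heart and show no stability. Pou2f2, a transcription factor of B cells and myeloid cells, was at 2.25 CPM in control hearts and 6.30 CPM in transferred hearts on average. The most similar gene was Slc24a5 for Rgs4 (r = 0.929), Tmeff1 for Rgs5 (r = 0.972), Chp2 for Rgs10 (r = 0.976), Dbt for Rgs12 (r = 0.983), Zfp451 for Rgs16 (r = 0.960) and Ube2l6 for Rgs18 (r = 0.978).

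Receptors, G proteins, effectors and other regulators were read beside the RGS genes. The pathway lists counted here also hold the 3 other tested RGS genes, 10 tested cyclic GMP pathway genes and 10 tested immediate early genes. Of 68 tested genes in the pathway lists, 1 passed the edgeR test, and it was lower, beside 0.235% of all tested genes in either direction and 0.104% lower. DESeq2 called 4 and limma-voom 0, and 10 of the 68 had an unadjusted p under 0.05, beside 3.35% called by DESeq2 and 12.4% at that p over all tested genes. The median log2 fold change of the 68 was 0.04, beside -0.002 over all tested genes. Aplnr, the Gi-coupled apelin receptor of endothelium, fell from 132.1 ± 17.4 CPM to 70.3 ± 9.74 CPM, at a log2 fold change of -0.91 ± 0.13 (adjusted p = 0.0384 by edgeR). The call was lost in limma-voom, with the identifier form as a covariate, in the 5 hearts with numeric identifiers, without any 1 of the 4 control hearts and without transferred heart 2.

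Of the 16 tested receptors 5 had an unadjusted p under 0.05, beside 12.4% of all tested genes. One was P2ry6, the Gq-coupled receptor for UDP on macrophages and smooth muscle. It was at 13.3, 12.6, 13.97 and 14.5 CPM in control hearts and at 19.8, 25.7 and 19.6 CPM in transferred hearts, without overlap. Its log2 fold change was 0.68 ± 0.13 (SE, adjusted p = 0.0702 by edgeR). Cxcr4, the receptor of the chemokine Cxcl12, was at 19.3 ± 6.08 CPM and 10.6 ± 3.21 CPM, with every transferred heart below every control heart (adjusted p = 0.264 by edgeR). P2ry12 and Cxcr2, a receptor of platelets and microglia and one of neutrophils, were the other two, and DESeq2 called both and P2ry6 as higher and Aplnr as lower.

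Of the alpha subunits 5 were tested, with a median log2 fold change of 0.05 and 0 at an unadjusted p under 0.05. Gnai1 and Gna12 had the smallest p, with log2 fold changes of 0.28 and -0.21 (adjusted p = 0.451 and 0.497 by edgeR). Of 9 tested beta and gamma subunits 1 had an unadjusted p under 0.05, Gnb4 with a log2 fold change of -0.28 (adjusted p = 0.309 by edgeR), and Gng10 followed with 0.18.

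Of 10 tested effectors 1 had an unadjusted p under 0.05. This was Prkcb, a protein kinase C of leukocytes, with a log2 fold change of 0.65 (adjusted p = 0.243 by edgeR). Plcb1, a phospholipase that Gq switches on, had 0.43 ± 0.29 (SE). Of 5 tested receptor kinases, arrestins and GoLoco proteins 2 had an unadjusted p under 0.05, Arrb1 with 0.32 and Gpsm1 with -0.21 (adjusted p = 0.347 and 0.349 by edgeR). At 12.4% of all tested genes, such counts in lists of 5 to 10 genes show nothing of the lists.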

How the data were processed

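Messenger RNA of apical myocardium from 4 control and 3 transferred NSG-DR1 mice was sequenced with paired-end reads of 75 nt, per the series' design text. The submitters' processing notes name bcl2fastq 2.20.0.422, cutadapt 2.5, STAR 2.7.2b, featureCounts 1.6.4, DESeq2 1.22.2 and build GRCm38.p6. The authors deposited estimated counts per gene, not normalized, of which 4.63% have a fractional part. They were rounded. The table read here holds 20343 complete rows and 1 unfinished row, left out. Genes beyond position 25129815 of chromosome 8 and on later chromosomes are not analysed here.

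Genes were filtered with filterByExpr and scaled with TMM in edgeR 4.0.16 (R 4.3.3), leaving 7667, and tested together by the quasi-likelihood test with robust estimation and Benjamini-Hochberg adjustment at 0.05. The standard error is the log2 fold change over the square root of F. CPM are TMM-scaled, and log2 CPM use a prior count of 2. Alternatives used DESeq2 1.42.0, limma 3.58.1 (voom), other scalings and filters, the identifier form and left-out hearts. Unrounded counts were added after seeing the data. Counts of 9 same-group pairs differed by 13.6 to 59.3 chi-square per degree of freedom.

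The genes described and the lists were chosen with earlier results of these data known. Named were the 8 genes, every other gene in the table whose symbol begins with Rgs, each pathway gene past the threshold, the 2 smallest p in each pathway list, the 5 genes most like Rgs2 and the 1 most like each other tested gene. Marker genes, neighbours of Rgs2 and the receptors Cxcr4, P2ry12 and Cxcr2 are named outside this rule, after their values were seen. Promoter sequences are from RefSeq on GRCm38.p6 and matched 6 of the 8 genes.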

Additional observations from a re-analysis of the deposited data

How the results depend on the processing

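Against 18 genes past the threshold over all tested genes (10 higher, 8 lower), scaling by total counts gave 35 (26 up, 9 down), all genes with at least 1 count 81 (66 up, 15 down), and DESeq2 252 (192 up, 60 down). With limma-voom, the identifier form as a covariate and the 5 hearts with numeric identifiers alone, 0 genes passed, with 907, 973 and 1054 at an unadjusted p under 0.05. Leaving out 1 heart at a time gave from 0 to 140 genes, the latter without transferred heart 3 (128 up, 12 down). Of the pathway genes, 1 passed as reported, 2 with all genes with at least 1 count and 4 by DESeq2. With limma-voom, the covariate and the numeric identifiers alone 0 passed, with 10, 14 and 11 at an unadjusted p under 0.05, and leaving out 1 heart gave from 0 to 4. RLE and upper-quartile scaling, the CPM filter, no robust estimation and unrounded counts kept both numbers within 1.5 times. Rgs2, Rgs4, Rgs5, Rgs10, Rgs16, Rgs3, Rgs7 and Rgs19 kept the sign of the log2 fold change in all 18 alternatives. Rgs12 kept it in 17 and Rgs18 in 16, the latter at -0.44 in the hearts with numeric identifiers. For none of these changes was the cause tested. At about 1 CPM, as for Rgs18 in control hearts, a value rests on 10 to 61 counts. No paired analysis was possible because the replicate numbers follow the order of deposition and pair no animals.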

Other observations

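The cyclic GMP pathway, whose kinase is known to phosphorylate and activate the Rgs2 protein in smooth muscle, had 10 tested genes (Prkg1, the gene of that kinase, is not analysed here) with a median log2 fold change of -0.04 and 0 at an unadjusted p under 0.05. Its values with the smallest p were Pde3a with 0.15 and Nos3 with -0.19 (adjusted p = 0.458 and 0.487 by edgeR). Immediate early genes, which cells switch on within minutes of a stimulus, had 10 tested members, with a median log2 fold change of 0.10 and 1 at an unadjusted p under 0.05, where 12.4% of all tested genes had such a p. This was Zfp36, which encodes a protein that destabilises cytokine transcripts, with 0.40 ± 0.15 (SE, adjusted p = 0.320 by edgeR), followed by Ier5 with 0.26. Their summed level ranged from 492 to 1046 CPM in control hearts and from 694 to 1057 CPM in transferred hearts.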
